A study of Mus musculus with 3 samples.

Results

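The genes described here are 10 genes of the zymogen granule and of its regulated release: Zg16, Gp2, Cuzd1, Sycn, Klk1, Spink1, Serpini2, Cckar, Rab3d and Rims4. They were taken by symbol from the 31053 genes of the count tables, and all 10 were found. Their RNA was measured in single cells of 3 mouse pancreatic tumours, with 1 droplet-based library of 3' RNA ends per tumour. Donor mice carried Msi2-Myc, in which tamoxifen-activated Cre expressed from the Msi2 gene switches on MycT58A, together with the R26-LSL-tdTomato reporter. Their tdTomato+ epithelial cells were sorted 5 weeks after tamoxifen and placed in the pancreas of NSG mice, which are immunodeficient, and EpCAM+ cells of the end-stage tumours were sorted for sequencing. All 3 libraries share this genotype and treatment, and no label sets one tumour apart from another. They are therefore 1 group with n = 3, so the tumours are described side by side and not tested against each other. The title of the series speaks of ASCP, PDAC and ACC tumours without saying which library is which. The labels do not say whether each tumour grew in its own mouse or how many donors were pooled, so p-values cover these libraries only. They rest on the spread left within tumours after differences between tumours are set aside, and not on a spread between mice.

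Pancreatic acinar cells make digestive enzymes as inactive precursors, pack them into zymogen granules under the apical membrane and release them when a hormone or nerve signal raises cytosolic calcium. The granule holds lectin-like and membrane-bound proteins beside the enzymes, and trypsin inhibitors that restrain early activation. Cholecystokinin is the classical hormonal trigger, and a small GTPase of the Rab3 family sits on the cytosolic face of the mature granule.

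A barcode counted as a cell with at least 1000 UMIs (unique molecular identifiers, 1 per captured RNA molecule), at least 500 genes, a mitochondrial share of 20% or less, and 60% or more of the UMIs seen for it over the 3 libraries in its own library. The libraries held 9737397 to 16521484 UMIs, and 1431, 253 and 2804 cells were kept in tumours 1, 2 and 3, with medians of 1333 to 1621 UMIs. No kept cell shared its barcode with a kept cell of another library, whereas 184 to 237 of the barcodes that passed the other filters in a library passed them in another as well. A cell was acinar-gated if Ctrb1 and Clps, a chymotrypsinogen and the lipase cofactor colipase, made up 5 or more of its 1000 UMIs and the gastric-type ductal genes Tff1 and Lgals4 fewer than 3. A ductal-gated cell met the reverse, and other cells met both thresholds or neither. There were 316, 36 and 1788 acinar-gated and 435, 103 and 209 ductal-gated cells in tumours 1, 2 and 3. The 8 acinar markers together stood at 14867 to 21248 CPM (UMIs per 1000000 UMIs) in acinar-gated cells and at 652 to 1377 CPM in ductal-gated cells. The 11 ductal markers stood at 2389 to 3654 and 15381 to 21332 CPM. Both lists include the gate genes, so much of this separation was set by the gating itself. Ctrb1 alone stood at 9703 to 12898 CPM in acinar-gated cells, and Tff1 at 7012 to 8401 CPM in ductal-gated cells. Endocrine, lymphoid and fibroblast markers were at 0 to 1.48 CPM in acinar-gated cells. Other lists were higher there: endothelial markers reached 16.3, tuft 14.5, mesothelial 11.7 and myeloid 6.49 CPM in 1 tumour or another. Squamous markers were at 16.3, 0 and 197 CPM in the acinar-gated cells of tumours 1, 2 and 3.

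The libraries differed in a way that touches every value below. Of the acinar-gated barcodes of tumour 3, 1257 (70.3%) took 10% or more of their UMIs from Gm42418, AY036118, Gm26917 and Lars2, genes of the ribosomal RNA locus or with reads from ribosomal RNA, against 63 (19.9%) in tumour 1 and 1 (2.78%) in tumour 2. In ductal-gated cells these rRNA-rich barcodes numbered 75, 23 and 9. The median acinar-gated barcode of tumour 3 had 0.455% mitochondrial UMIs, against 2.03% in tumour 1. Their part in the results was not tested. The tests, levels, bins and list counts are given with and without them, while shares of cells with a UMI, the concentration in single cells and the likeness of genes are given over all cells. Free RNA, read from barcodes of 10 to 100 UMIs, held 3.30, 2.56 and 4.53 UMIs of Ctrb1 and Clps per 1000, all below the acinar threshold of 5 and nearest to it in tumour 3. Of the acinar-gated cells, 44, 6 and 188 lay below 6 per 1000, close to that threshold.

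In the mm10 build, 5 of the members lie on chromosome 7 at separate places: Zg16 (chr7:127050156-127087328), Gp2 (chr7:119442537-119459285), Cuzd1 (chr7:131308554-131322292), Sycn (chr7:28540885-28542209) and Klk1 (chr7:44225360-44229618). Serpini2 is at chr3:75242370-75270078, Cckar at chr5:53697776-53707705, Rab3d at chr9:21907491-21918192 and Rims4 at chr2:163859751-163918683. Each is a protein-coding gene.

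The start windows of 4 members are shown because 3 of them belong to genes that were higher in acinar-gated cells and the fourth, Rab3d, to the one that was lower. Each runs from 250 bases before to 50 bases after the annotated start (RefSeq, GRCm38.p6, gene strand), and capitals mark the motifs named after them. Gp2 (chr7:119459223-119459522, minus strand), Sycn (chr7:28540635-28540934, plus strand), Klk1 (chr7:44225110-44225409, plus strand) and Rab3d (chr9:21918134-21918433, minus strand) read 5′ to 3′ as follows.
Gp2: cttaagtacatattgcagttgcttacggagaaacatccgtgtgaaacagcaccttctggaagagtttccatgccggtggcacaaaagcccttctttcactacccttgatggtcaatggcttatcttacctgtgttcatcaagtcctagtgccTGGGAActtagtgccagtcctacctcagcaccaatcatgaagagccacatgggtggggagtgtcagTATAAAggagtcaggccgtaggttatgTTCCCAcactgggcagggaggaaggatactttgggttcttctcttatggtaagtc
Sycn: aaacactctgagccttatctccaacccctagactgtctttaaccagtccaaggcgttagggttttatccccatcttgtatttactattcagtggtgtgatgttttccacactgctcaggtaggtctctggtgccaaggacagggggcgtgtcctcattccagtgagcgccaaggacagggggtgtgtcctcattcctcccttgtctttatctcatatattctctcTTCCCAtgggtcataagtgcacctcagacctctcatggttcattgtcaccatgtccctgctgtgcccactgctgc
Klk1: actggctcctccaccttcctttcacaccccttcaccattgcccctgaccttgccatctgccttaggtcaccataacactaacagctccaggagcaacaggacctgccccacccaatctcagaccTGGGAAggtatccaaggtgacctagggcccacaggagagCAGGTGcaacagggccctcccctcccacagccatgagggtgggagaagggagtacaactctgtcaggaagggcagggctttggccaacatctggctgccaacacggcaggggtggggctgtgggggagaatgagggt
Rab3d: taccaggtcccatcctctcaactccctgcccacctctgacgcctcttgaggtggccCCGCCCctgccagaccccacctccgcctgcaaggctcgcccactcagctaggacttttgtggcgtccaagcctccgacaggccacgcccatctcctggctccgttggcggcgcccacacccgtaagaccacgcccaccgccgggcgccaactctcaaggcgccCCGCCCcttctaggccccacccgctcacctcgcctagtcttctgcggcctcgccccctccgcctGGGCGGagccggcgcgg

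Windows were matched for 6 of the 10 members, the other two with a window being Cuzd1 and Serpini2. The Rab3d window held 71.0% G and C and 26 CpG dinucleotides. The other 5 windows held 1 to 4 CpG, against a median of 7 over all 32851 windows. Their G and C content was 48.3% in Gp2, 50.3% in Sycn and 54.3% in Cuzd1, near the median of 52.7%, and in Klk1 it was higher than in 70.5% of windows. Serpini2 had the most A- and T-rich window, at 30.3%, and 1.03% of all windows had a lower content. Searched on both strands were TATAAA (the TATA box core, in 13.6% of all windows), CACCTG (an E-box of the PTF1 type, 20.2%), TTCCCA (an RBPJ-type core, 25.6%), CATATG (an E-box preferred by MIST1, 3.91%) and GGGCGG (the GC box, 35.7%). In Gp2 TATAAA began 32 bases before the start, and TTCCCA lay 5 bases before it and, on the other strand, 98 bases before it. Sycn held TTCCCA 25 bases before its start. Klk1 held CACCTG and TTCCCA on the other strand, 87 and 126 bases before the start. Rab3d held GGGCGG 3 times and none of the other letters. Serpini2 held CACCTG and TATAAA, and the Cuzd1 window held none of the 5. A match of these letters describes the window and does not show a bound site.

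Among the granule content and membrane genes, most UMIs of Cuzd1, Sycn and Gp2 summed over the 3 tumours lay in acinar-gated cells. Tumour 2 went the other way, with 6, 5 and 0 of their UMIs in acinar-gated cells and 23, 8 and 2 in cells of neither gate. The Zg16 level over all acinar-gated cells did not exceed that of free RNA beyond counting error. Cuzd1, which encodes a zona pellucida-domain protein of the granule membrane, had 87, 6 and 1260 UMIs in the acinar-gated cells of tumours 1, 2 and 3, which is 129, 87.3 and 314 CPM (mean 177 ± 121, SD, n = 3). Tumour 3 was the highest, and its exact 95% Poisson interval (297 to 332 CPM) did not overlap those of tumours 1 (103 to 159) and 2 (32.0 to 190). Without rRNA-rich barcodes the levels were 144, 90.1 and 484 CPM, so tumour 3 (454 to 514) stood further from the others. In ductal-gated cells it had 1, 4 and 7 UMIs, or 1.07, 25.3 and 10.0 CPM. Cells of neither gate had 17.2, 74.3 and 73.0 CPM of Cuzd1, and in tumour 2 their interval (47.1 to 112) overlapped the acinar-gated one. All Poisson intervals here cover counting error only.

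Sycn, the gene of syncollin, a small protein of the inner granule surface, stood at 131, 72.7 and 134 CPM in acinar-gated cells (mean 113 ± 34.5, SD, n = 3) and at 7.52, 6.32 and 8.59 CPM in ductal-gated cells. The lowest acinar-gated value, from 5 UMIs of tumour 2, lay above every ductal-gated one. Without rRNA-rich barcodes the acinar-gated levels were 142, 75.1 and 155 CPM. Gp2, the gene of the main glycoprotein of the granule membrane, had 12, 0 and 225 acinar-gated UMIs, that is 17.8, 0 and 56.1 CPM, against 3, 0 and 4 ductal-gated UMIs. The 0 in tumour 2 allows up to 43.6 CPM (3 UMIs), so its absence there was not detectable at this depth. Free RNA held 11.8, 14.3 and 18.5 CPM of Gp2, and the acinar-gated interval lay above that of free RNA in tumour 3 (49.0 to 64.0 against 13.1 to 25.3 CPM) but overlapped it in tumour 1 (9.20 to 31.1 against 7.96 to 16.8). Without rRNA-rich barcodes Gp2 stood at 20.8, 0 and 62.8 CPM. Gp2 was also concentrated in few cells of tumour 3, where 10 cells held 51.1% of its 225 UMIs. In tumour 1 its 12 UMIs lay in 8 cells, too few to judge concentration.

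Zg16, a lectin-like protein that binds the granule's inner matrix and that goblet cells of the gut also make, had 17, 1 and 183 UMIs in acinar-gated cells, or 25.2, 14.5 and 45.7 CPM. Free RNA held 26.0, 25.7 and 34.6 CPM of it. The acinar-gated value was below free RNA in tumours 1 and 2, and in tumour 3 the intervals overlapped (39.3 to 52.8 against 27.1 to 43.5 CPM). Over all acinar-gated cells the level could therefore not be told from free RNA. Parts of tumour 3 did lie above the free RNA interval: its enzyme-rich acinar-gated cells had 53.8 CPM (44.3 to 64.6) and its cycle-low cells 72.7 CPM (60.7 to 86.3), by the splits described further on, and 1 cell held 32 of the UMIs. Without rRNA-rich barcodes these became 32.8 (22.7 to 45.9) and 36.0 CPM (25.2 to 49.9), which overlapped free RNA. Of its UMIs in tumour 3, 78.7% lay in the rRNA-rich barcodes, which is a larger share than for any other member there (range of the others 20.6% to 45.2%). Without those barcodes tumour 3 fell to 18.8 CPM from 39 UMIs. Among goblet markers Muc2 had 1 UMI in acinar-gated and 0 in ductal-gated cells, but Clca1 had 79 and 609. The 5 goblet markers together were at 14.5 to 57.9 CPM in acinar-gated cells. In ductal-gated cells they were at 335, 385 and 1071 CPM in tumours 1, 2 and 3.

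The secreted protease Klk1 and the inhibitor Spink1 stood above free RNA in the acinar-gated cells of every tumour. Klk1, a kallikrein that cleaves kininogen, had 317, 60 and 1355 UMIs in acinar-gated cells, or 470, 873 and 338 CPM (mean 560 ± 278, SD, n = 3), and 23.6, 63.2 and 8.59 CPM in ductal-gated cells. Tumour 2 was the highest here (666 to 1124 CPM) and did not overlap tumours 1 (420 to 525) and 3 (320 to 357), although it rests on 36 cells. The same holds without rRNA-rich barcodes, at 519, 901 and 463 CPM. Near-identical Klk1b copies lie beside Klk1, so reads can be split between them: the 13 copies had 262 UMIs in all cells, 211 of them acinar-gated, against 2077 for Klk1.

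Spink1 (chr18:43728082-43737557), the trypsin inhibitor stored beside trypsinogen, varied little between tumours, at 236, 262 and 252 CPM in acinar-gated cells (mean 250 ± 13.0, SD, n = 3). Its intervals overlapped in all 3 tumours (201 to 276, 155 to 414 and 236 to 268 CPM). Without rRNA-rich barcodes the levels were 263, 255 and 267 CPM. The ductal-gated cells had 19.3, 19.0 and 11.5 CPM. Serpini2, a serpin of acinar cells, had 17, 0 and 384 UMIs in acinar-gated cells, or 25.2, 0 and 95.8 CPM, and 4, 0 and 1 in ductal-gated cells. Free RNA held 7.47, 8.57 and 14.7 CPM, below the acinar-gated intervals of tumours 1 (14.7 to 40.4) and 3 (86.5 to 106). Tumour 3 was the highest and 10 of its cells held 48.7% of the Serpini2 UMIs, with 65 UMIs in 1 cell. Without rRNA-rich barcodes Serpini2 stood at 26.0, 0 and 145 CPM, the last with an interval of 129 to 163.

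The genes that control release did not move together. Cckar encodes the cholecystokinin receptor of rodent acinar cells and had 96, 11 and 366 UMIs in acinar-gated cells, or 142, 160 and 91.3 CPM (mean 131 ± 35.7, SD, n = 3). Here tumour 3 was the lowest, with an interval (82.2 to 101 CPM) under that of tumour 1 (115 to 174). Without rRNA-rich barcodes the levels were 166, 165 and 129 CPM, and the intervals of tumours 1 (135 to 203) and 3 (114 to 146) overlapped. Ductal-gated cells held 3, 2 and 2 UMIs, or 3.22, 12.6 and 2.86 CPM, and free RNA 22.0, 9.99 and 26.1 CPM. The related receptor Cckbr had 0 UMIs in acinar-gated and in ductal-gated cells.

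Rab3d, the granule GTPase, showed the reverse order, with 14.8, 0 and 18.7 CPM in acinar-gated cells (10, 0 and 75 UMIs) and 40.8, 50.5 and 31.5 CPM in ductal-gated cells (38, 8 and 22 UMIs; mean 41.0 ± 9.51, SD, n = 3). Each tumour had more in ductal-gated than in acinar-gated cells, and the intervals of tumour 1 (28.9 to 56.0 against 7.12 to 27.3 CPM) did not overlap. Those of tumour 3 overlapped (19.7 to 47.7 against 14.7 to 23.5 CPM), and so did those of tumour 2 (21.8 to 99.6 against 0 to 53.7 CPM). The acinar-gated 0 of tumour 2 allows up to 43.6 CPM (3 UMIs), so the order there lies within counting error. Without rRNA-rich barcodes Rab3d had 17.3, 0 and 23.2 CPM in acinar-gated and 42.9, 35.9 and 32.2 CPM in ductal-gated cells, the same order, but the intervals of tumour 1 then overlapped too (8.30 to 31.8 against 29.9 to 59.7). Free RNA held 18.1, 13.6 and 19.4 CPM of Rab3d, so the acinar-gated level was no higher than free RNA, while the ductal-gated level exceeded it in every tumour and beyond counting error in tumours 1 and 2 (in tumour 1 alone without rRNA-rich barcodes).

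Rims4, a short relative of the RIM proteins that organise exocytosis sites in nerve endings, was scarce. It had 12, 1 and 30 UMIs in acinar-gated cells (17.8, 14.5 and 7.49 CPM) and 0 in the ductal-gated cells of every tumour. Pooled over the 3 tumours, 43 UMIs against the 3 that a count of 0 allows give a ratio of 5.39, and of 7.12 without rRNA-rich barcodes. Pooling sets aside the tumours and the counting error of the 43 UMIs, so the ratio is no strict lower bound. In tumour 3 alone 7.49 CPM stood against a ductal-gated limit of 4.30 CPM. Free RNA held 3.54, 0.714 and 2.84 CPM, below the acinar-gated values, although the intervals of tumours 2 and 3 overlapped. Without rRNA-rich barcodes Rims4 stood at 20.8, 15.0 and 11.1 CPM, and the interval of tumour 3 (7.04 to 16.7) then lay above that of free RNA (1.04 to 6.19).

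**Figure D1:**
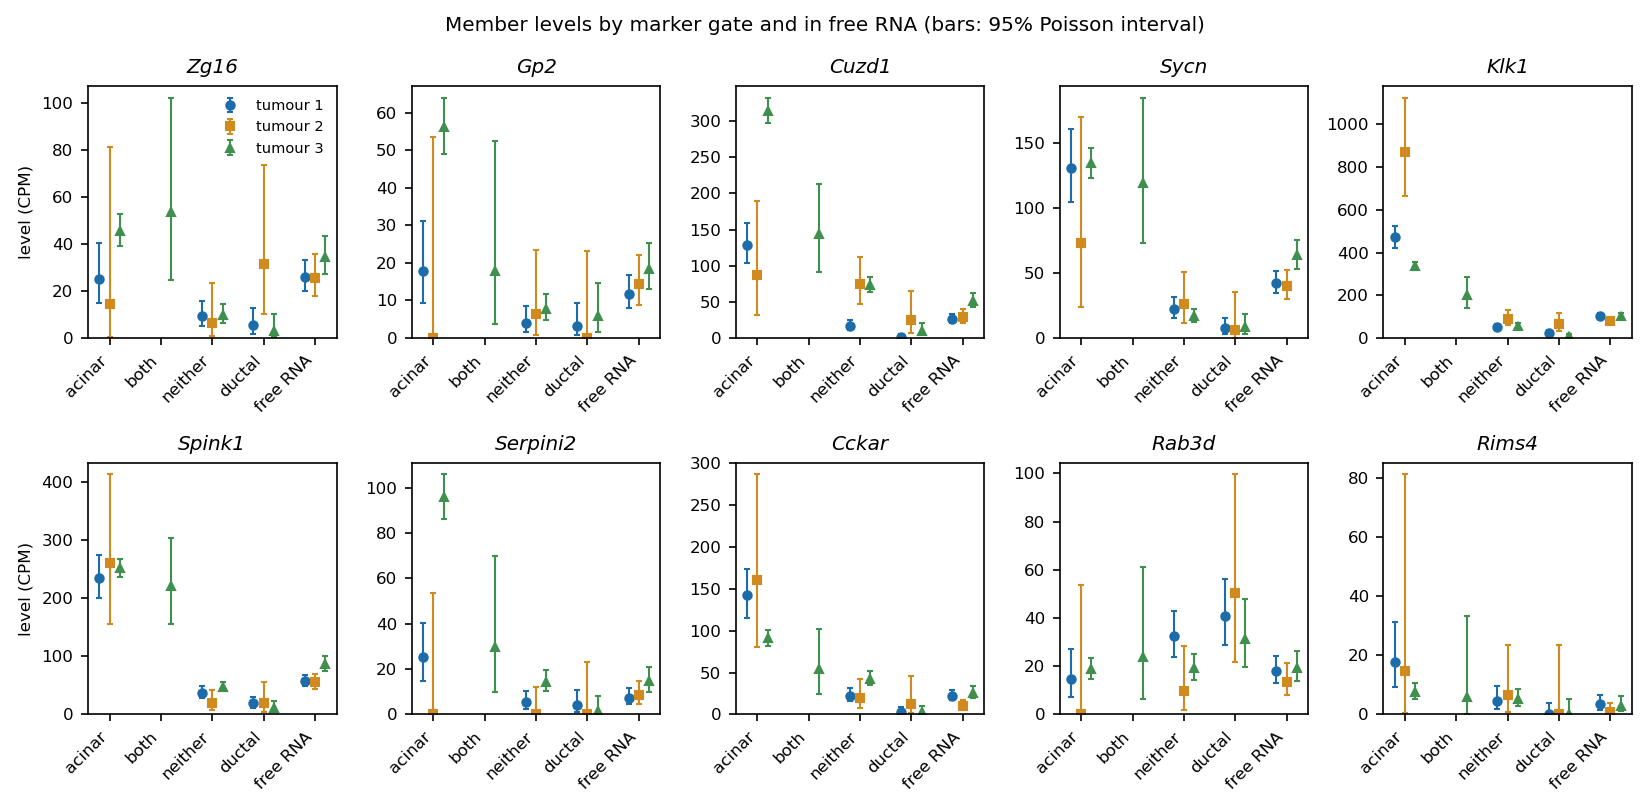
Level of each member in CPM (vertical axis, linear, from 0) for cells of each marker gate and for free RNA, 1 point per tumour with its exact 95% Poisson interval; sums of fewer than 30 cells are not drawn. Spink1 stands at 236 to 262 CPM in acinar-gated cells of all tumours, Zg16 lies near its free RNA level of 25.7 to 34.6 CPM, and Rab3d is highest in ductal-gated cells, at 31.5 to 50.5 CPM.

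Between the acinar-gated and ductal-gated extremes lay the cells that met both thresholds or neither. Of the 99 cells of tumour 3 that met both, 84 were rRNA-rich, and the member levels in them depended on those barcodes. Spink1 stood at 221 CPM (155.7 to 305) over all 99 cells, overlapping the acinar-gated 252, but at 68.8 CPM (14.2 to 201) from 3 UMIs in the 15 other cells, below the acinar-gated 267 (245 to 290). Klk1 (203 CPM, 141 to 284) lay below its acinar-gated 338 CPM over all cells, and overlapped the acinar-gated level without rRNA-rich barcodes (252 CPM, 126 to 451, against 463, 434 to 494). Cuzd1 did the same, with 143 CPM (91.9 to 213) against 314 over all cells and 275 (142 to 481) against 484 without those barcodes. Sycn overlapped its acinar-gated level both ways, at 120 CPM (73.0 to 185) and 229 CPM (110.0 to 422). In the cells of neither gate Klk1 stood at 52.2, 90.5 and 58.2 CPM, under the acinar-gated level in every tumour and above the ductal-gated one beyond counting error in tumours 1 and 3. Without rRNA-rich barcodes it was at 22.0, 83.1 and 36.0 CPM and exceeded the ductal-gated level beyond counting error in tumours 2 and 3. Rab3d in those cells, at 32.4, 9.69 and 19.2 CPM, overlapped both the ductal-gated and the acinar-gated level in every tumour, with those barcodes and without. For the 9 members other than Rab3d, ductal-gated levels lay below those of free RNA in every tumour, except Zg16 and Cckar in tumour 2, whose intervals overlapped those of free RNA.

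The share of cells with at least 1 UMI, after every cell was thinned to 1000 UMIs, gave the same order for most members. For Klk1 it was 29.1%, 36.1% and 22.4% of acinar-gated cells in tumours 1, 2 and 3 and 2.30%, 5.83% and 0.478% of ductal-gated cells, which serve as the cell type that should lack it. Unthinned shares were 42.1%, 52.8% and 33.9% against 4.37%, 8.74% and 2.39%, at median depths of 1630.5, 1284.5 and 1553 UMIs and of 1622, 1294 and 1860 UMIs. Spink1 was found in 12.3%, 2.78% and 18.2% of thinned acinar-gated cells and in 2.76%, 0.971% and 0.957% of ductal-gated ones. Cckar was found in 11.4%, 13.9% and 6.26%, against 0.460%, 0.971% and 0 of 209 cells, which allows up to 1.44%. For Rab3d the thinned shares were 0.949%, 0 of 36 cells (up to 8.33%) and 1.45% of acinar-gated and 3.22%, 4.85% and 0.957% of ductal-gated cells. In tumour 3 that goes against the CPM, so no order is read from it. No cell was excluded by thinning.

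Tested within tumours, 9 of the 10 members were higher in acinar-gated than in ductal-gated cells and 1 was lower. The test was edgeR's quasi-likelihood test on UMIs summed per tumour and gate, with tumour as a blocking term and p-values adjusted by Benjamini-Hochberg over 8682 genes. The acinar-gated cells of tumour 2 were too few for a sum, so this side rests on 2 tumours. In the fits without tumour 1 or without tumour 3 it rests on 1 tumour. Calls and counts from those fits, here and for the lists below, therefore have no replicate on the acinar-gated side. The fit left 3 residual degrees of freedom, so its small p-values rely in part on a spread estimated across genes. By the same rule 29.2% of all genes tested were called, 14.0% higher and 15.2% lower. All 10 members passed the filter on low counts. Their median log2 difference was 4.25, against 0.00387 over all genes tested. Rims4 is counted among the 9 and in the median. It had 0 ductal-gated UMIs in every tumour, so its direction was fixed once it passed the filter.

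The log2 differences (acinar-gated minus ductal-gated, SE) were 5.17 (0.30) for Cuzd1, 4.80 (0.41) for Cckar, 4.41 (0.24) for Klk1, 4.30 (0.47) for Serpini2, 4.19 (0.30) for Sycn and 3.92 (0.24) for Spink1. Their adjusted p-values ran from 9.71e-16 for Klk1 to 1.31e-08 for Serpini2. Gp2 was at 3.26 (0.44), adjusted p = 6.25e-07. Zg16 was at 2.63 (0.45), adjusted p = 2.33e-05, a comparison in which neither gate stood above free RNA beyond counting error. Rims4 had a fitted value of 6.91 (1.58), adjusted p = 0.00113; with no UMI on the ductal side this depends on the tool's prior count and is no bound. Rab3d fell by 0.86 on the log2 scale (SE 0.32, adjusted p = 0.0416).

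Without the rRNA-rich barcodes, where 31.7% of all genes tested were called, the 8 members that were higher and could be tested stayed called, and Rims4 was not tested. Klk1 rose to 6.11 (SE 0.27), Cckar to 6.63 (0.54), Spink1 to 5.61 (0.32), Serpini2 to 5.76 (0.52) and Zg16 to 4.63 (1.02, adjusted p = 0.000586), while Gp2 stood at 3.61 (0.49). The ductal side then held 12 UMIs of Klk1 instead of 38 and 1 UMI of Zg16 instead of 12. Rab3d lost its call (-0.76, SE 0.32, adjusted p = 0.0703). It lost it as well without tumour 1 (adjusted p = 0.307), without tumour 2 (0.0517), without the block (0.0956), with DESeq2 (0.189), with looser gates (0.0559) and at 2000 UMIs per cell (0.177), with a negative difference in each. Without tumour 3, 4 higher members lost their calls. Zg16 was then at 1.48 (adjusted p = 0.266), Gp2 at 2.59 (0.262) and Serpini2 at 2.44 (0.182), all smaller than before, while the fitted value of Rims4 was 6.71 (0.0590). Serpini2 was at 6.19 without tumour 1, where tumour 3 alone gives the acinar-gated side. Without the 5% of cells with most UMIs it was at 2.89 and was called.

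**Figure D2:**
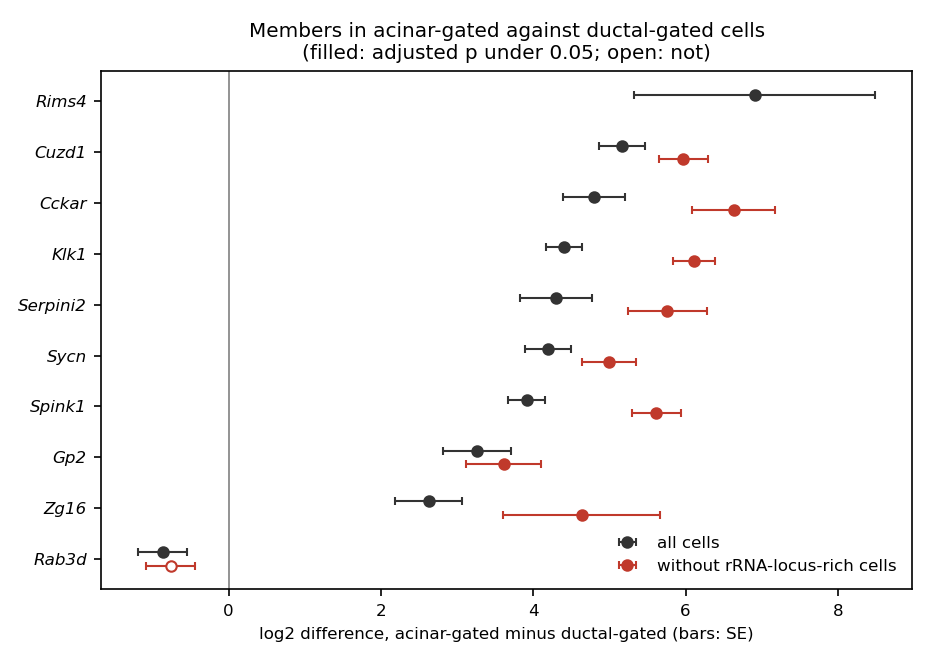
Log2 difference between acinar-gated and ductal-gated cells (horizontal axis) with its SE for each member, in all cells and without rRNA-rich barcodes; filled points passed an adjusted p of 0.05. Rab3d, at -0.86 and -0.76, is the only member left of 0, and Rims4 is drawn for all cells only, its fitted 6.91 resting on 0 ductal-gated UMIs.

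Relatives of the members were scarce or differed in direction. Of 28 listed, 5 were tested and all 5 were called, where 29.2% of all genes tested were. Of the Rab3 genes, Rab3a had 17 acinar-gated and 10 ductal-gated UMIs, Rab3c 1 UMI in all cells and Rab3b 0. Rims1, a long RIM protein, had 65 and 3 UMIs, or 19.3, 14.5 and 12.7 CPM in acinar-gated cells, and was 3.29 higher on the log2 scale (SE 0.74, adjusted p = 0.000785), while Rims2 had 2 and 1. Klk1b3 was higher by 3.24 (SE 0.57, adjusted p = 4.00e-05). Spink4, a Spink of goblet and gastric cells, ran opposite to Spink1, with 63.8, 72.7 and 107 CPM in acinar-gated and 288, 550 and 470 CPM in ductal-gated cells (log2 -2.17, SE 0.22, adjusted p = 1.26e-09). The groups did not overlap. Serpini1, the neuroserpin relative of Serpini2, was higher by 1.21 (SE 0.32, adjusted p = 0.00438), with 66.1 against 18.6 CPM in tumour 3 and 23.7 against 22.6 CPM in tumour 1. Dmbt1, a relative of Cuzd1 in its CUB and zona pellucida domains, was lower in acinar-gated cells (log2 -0.57, SE 0.19, adjusted p = 0.0251). Without tumour 3 none of the 3 higher relatives was called and 1 of the lower ones still was; without rRNA-rich barcodes 3 relatives were higher and 2 lower, as before.

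The exocytosis machinery was called about as often as all genes. Of 39 listed genes of the exocytosis machinery, 26 were tested: none was higher, 8 were lower and 18 did not pass, with a median of -0.33. The 8 called make up 30.8% of the list, against 29.2% of all genes in either direction and 15.2% lower. The count at an unadjusted p under 0.05 was 11, none of them higher. DESeq2 called 6 lower and none higher. The largest differences were those of Sytl2, a Rab27 effector (-4.13, SE 0.48), and the GTPase gene Rab27a (-3.01, SE 0.44), then Rab27b (-1.73, SE 0.29), Scamp2 (-1.54, SE 0.22) and Stx7 (-1.13, SE 0.25), with adjusted p-values of 3.82e-08, 2.21e-06, 2.34e-05, 1.12e-06 and 0.000659. Rab27b, which acinar granules are known to carry, had 5.94, 0 and 17.7 CPM in acinar-gated and 44.0, 44.2 and 63.0 CPM in ductal-gated cells. Both Rab27 genes were thus lower in acinar-gated cells. Rab3d was lower too in the main test, but its call did not hold. It was lost with DESeq2 (adjusted p = 0.189) and in edgeR without the block (0.0956), among other settings given above. With no filter on low counts or without tumour 2, 1 gene of this list was higher. Without tumour 1 and without tumour 3 the lower genes were 5 and 4, and without rRNA-rich barcodes 10 of 24.

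Of 35 listed receptors and calcium or cAMP signalling genes, 21 were tested, 1 was higher and 6 were lower (median -0.26), so 33.3% were called, near the share of all genes. Without tumour 3, 3 were lower and none higher, and without rRNA-rich barcodes the counts were again 1 and 6. The inositol trisphosphate receptor gene Itpr1 was the one that rose (1.42, SE 0.49, adjusted p = 0.0265; not called with DESeq2), while Itpr3 fell (-1.32, SE 0.23), as did the calcium pumps Atp2a3 (-2.57, SE 0.42) and Atp2b1 (-1.43, SE 0.16) and the cyclic ADP-ribose enzyme Cd38 (-2.37, SE 0.36). Their adjusted p-values ran from 1.08e-08 to 3.78e-05. The muscarinic receptor genes Chrm1 and Chrm3, the secretin receptor gene Sctr, Vipr1, Vipr2 and Grpr had too few UMIs to be tested, which left Cckar as the secretagogue receptor that was tested.

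Factors of acinar identity and granule formation were mostly higher. Of 24 listed genes 13 were tested, 9 were higher and 1 lower, with a median of 2.57. They included the transcription factor genes Rbpjl (4.15, SE 0.32), Ptf1a (4.02, SE 0.46) and Nr5a2 (3.68, SE 0.56) and the disulphide isomerase family genes Erp27 (4.77, SE 0.35) and Pdia2 (3.63, SE 0.40), all with adjusted p-values of 5.00e-06 or less. Without rRNA-rich barcodes 10 were higher and 2 lower. Among all genes tested 14.0% were higher and 15.2% lower. The share called in either direction was 29.2% of all genes and 76.9% of this list. It was 60% for the folding genes, 61.5% for the inhibitors, 90.9% for the enzymes and 76.5% for the cell cycle genes below. Of all 8682 genes, 1379 were called without the block and 1237 with DESeq2. Of 20 endoplasmic reticulum folding genes 10 were higher and 2 lower (median 0.41). That count depended on the tumours and the tool: 4 were higher without tumour 1 and 3 without tumour 3, 5 without the block and 7 with DESeq2, and none was lower in these; without rRNA-rich barcodes 10 were higher and 2 lower. Of 13 tested protease inhibitors other than members, 2 were higher, Slpi (1.37, SE 0.35) and Serpini1, and 6 were lower, led by Serpinb5 (-2.22, SE 0.26), Spink4 and Serpinb6a (-0.91, SE 0.17). Without tumour 1 the lower ones were 2, without tumour 3 they were 4 with none higher, with DESeq2 5 with none higher, and without rRNA-rich barcodes 7 with 3 higher. Of the 22 digestive enzyme genes tested, 20 were higher (median 4.15), beside the members' median of 4.25, and without rRNA-rich barcodes 18 of 18. Of 34 cell cycle genes 26 were higher in acinar-gated cells and none was lower, with or without rRNA-rich barcodes. The higher ones were 13 without tumour 3, 16 with DESeq2 and 17 without the block.

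**Figure D3:**
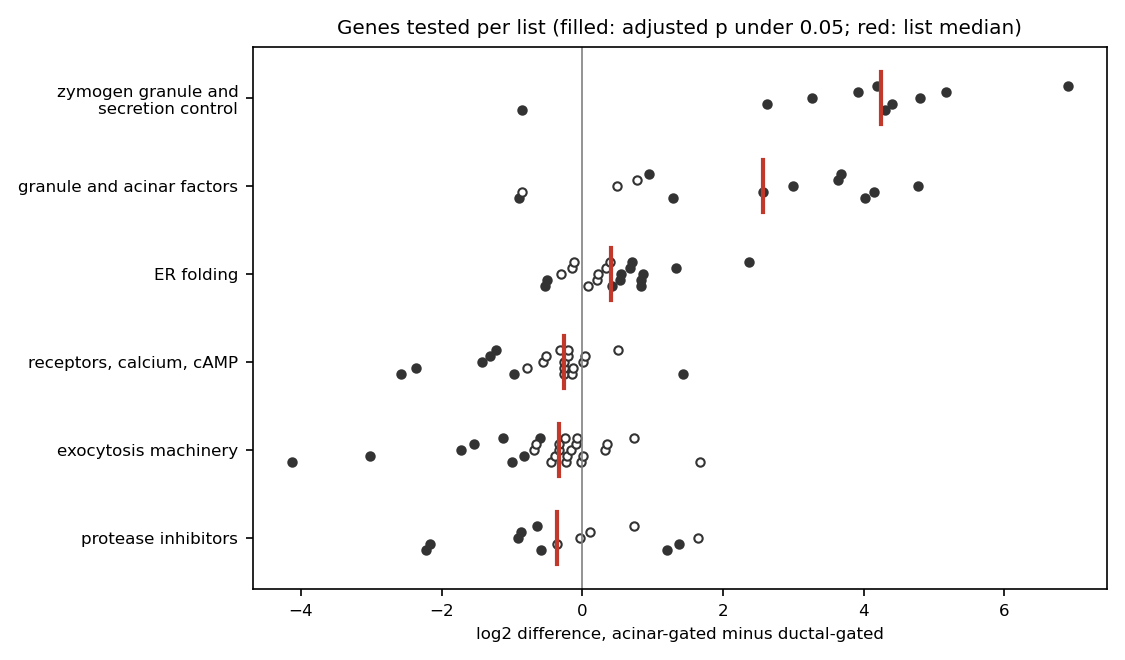
Log2 difference between acinar-gated and ductal-gated cells (horizontal axis) for every tested gene of 6 lists, 1 point per gene; filled points passed an adjusted p of 0.05 and the red bar is the list's median. The medians of the members (4.25) and of the granule and acinar factors (2.57) lie to the right of 0, and the exocytosis machinery (-0.33) has its called genes to the left.

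Over the 9 sums of tumour and gate, genes most like the members' mean included Pnliprp1, a lipase-related protein (Pearson 0.99), Cpa1 and Prss2, a carboxypeptidase and a trypsinogen (both 0.986), and Cela2a, an elastase (0.982). These sums share their tumours and libraries and differ mainly by gate, so the values are a description. Pnliprp1 stood at 3514, 3957 and 3321 CPM in acinar-gated cells. Set against the mean of the other members, Spink1 (0.981), Sycn (0.938), Cckar (0.923) and Klk1 (0.901) were the most alike, Cuzd1, Serpini2, Rims4, Zg16 and Gp2 ranged from 0.813 down to 0.730, and Rab3d ran opposite (-0.566).

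Among acinar-gated cells the members did not all follow enzyme content. Cells of tumours 1 and 3 were split at their tumour's median share of UMIs from 23 digestive enzyme genes, none of them a member or a gate gene. The enzyme-rich cells held 21.5 and 21.0 enzyme UMIs per 1000 and the enzyme-poor cells 5.33 and 6.81. Of 9 members tested, 6 were higher in enzyme-rich cells and none lower, while 1.82% of the 7790 genes tested were called, 0.680% higher and 1.14% lower. rRNA-rich barcodes were fewer among enzyme-rich cells (6 against 57 in tumour 1 and 575 against 682 in tumour 3).

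Serpini2 rose by 1.83 on the log2 scale (SE 0.22, adjusted p = 6.74e-10), from 6.17 to 42.9 CPM in tumour 1 and from 40.9 to 146 CPM in tumour 3. Spink1 rose by 1.43 (SE 0.15, adjusted p = 6.54e-12), from 77.1 to 383 and from 146 to 348 CPM. Klk1 rose by 1.34 (SE 0.13, adjusted p = 6.78e-13), from 213 to 710 and from 200.4 to 463 CPM. In both tumours each of these genes was higher in the enzyme-rich cells, and in the 36 cells of tumour 2, which were not in the test, Spink1 (380 against 102 CPM) and Klk1 (1090 against 580 CPM) had the same order. Without the 5% of cells with most UMIs Serpini2 was at 0.92 and was not called (adjusted p = 0.0994), while Klk1 (1.09) and Spink1 (1.00) were.

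Sycn (0.83, SE 0.16, adjusted p = 0.000381), Cuzd1 (0.81, SE 0.14, adjusted p = 1.90e-05) and Cckar (0.67, SE 0.17, adjusted p = 0.0165) also rose. The Cckar call was lost with stricter (adjusted p = 0.532) and looser gates (0.151), with no home-library filter (0.172), at 2000 UMIs per cell (0.472), without the 5% of cells with most UMIs (0.0798) and with 10 cells per sum (0.0571). Gp2 (0.75, SE 0.24, adjusted p = 0.114) and Zg16 (0.65, SE 0.25, adjusted p = 0.252) did not pass, and Rab3d was at 0.00 (SE 0.36, adjusted p = 0.999), with 17.2 against 12.3 CPM in tumour 1 and 18.6 against 18.9 CPM in tumour 3. Gp2 was called with stricter gates (1.77, adjusted p = 0.00179), looser gates (0.87, 0.0273), without the 5% of cells with most UMIs (1.69, 1.18e-05) and between the top and bottom of 3 equal groups (1.27, 0.000298). Zg16 was called with stricter gates (1.60, adjusted p = 0.0194), at 2000 UMIs per cell (1.77, 0.00487) and between the top and bottom of 3 equal groups (1.03, 0.0198). Rims4 was too scarce to test. Without rRNA-rich barcodes, where 1.97% of genes were called, Serpini2 (2.62), Spink1 (2.81), Klk1 (1.42), Sycn (1.47) and Cuzd1 (0.71) kept their calls, Zg16 gained one (2.51, SE 0.49, adjusted p = 0.000256) and Cckar lost its own (0.36, SE 0.18, adjusted p = 0.439). The test has 1 residual degree of freedom: DESeq2 called only Klk1 and Spink1 of the members, and edgeR without the tumour block called none.

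Divided into 4 equal bins by enzyme content, the acinar-gated cells showed different shapes for different members. Klk1 climbed over all bins, at 140, 287, 488 and 934 CPM in tumour 1 and 153, 257, 286 and 574 CPM in tumour 3. Spink1 did likewise, from 24.4 to 617 and from 118 to 449 CPM. Serpini2 stayed at 5.68 to 6.24 CPM in the lower 3 bins of tumour 1 and reached 80.8 CPM in the top bin, and in tumour 3 it went from 31.9 to 51.6 CPM in the lower 3 to 215 CPM. Cuzd1 and Sycn had their highest value in the top bin as well, at 519 and 209 CPM in tumour 3. Cckar peaked in the bin below the top in tumour 1 (239 CPM, then 133) but in the top one in tumour 3 (132 CPM). Rab3d lay between 17.2 and 20.3 CPM in all 4 bins of tumour 3.

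Binned without the rRNA-rich barcodes, the top bin again held the highest Klk1 (1022 and 924 CPM), Spink1 (722 and 666 CPM), Serpini2 (92.9 and 369 CPM), Cuzd1 (279 and 717 CPM) and Sycn (322 and 296 CPM) of tumours 1 and 3. Serpini2 now climbed over the lower bins of tumour 3 (25.9, 60.2 and 95.5 CPM), and Spink1 over all of them (23.9, 94.0, 234 and 666 CPM). Klk1 no longer climbed at every step there (159, 363, 336 and 924 CPM), Cckar in tumour 1 was highest in the second bin (223 CPM), and Rab3d in tumour 3 varied from 13.0 to 35.7 CPM.

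**Figure D4:**
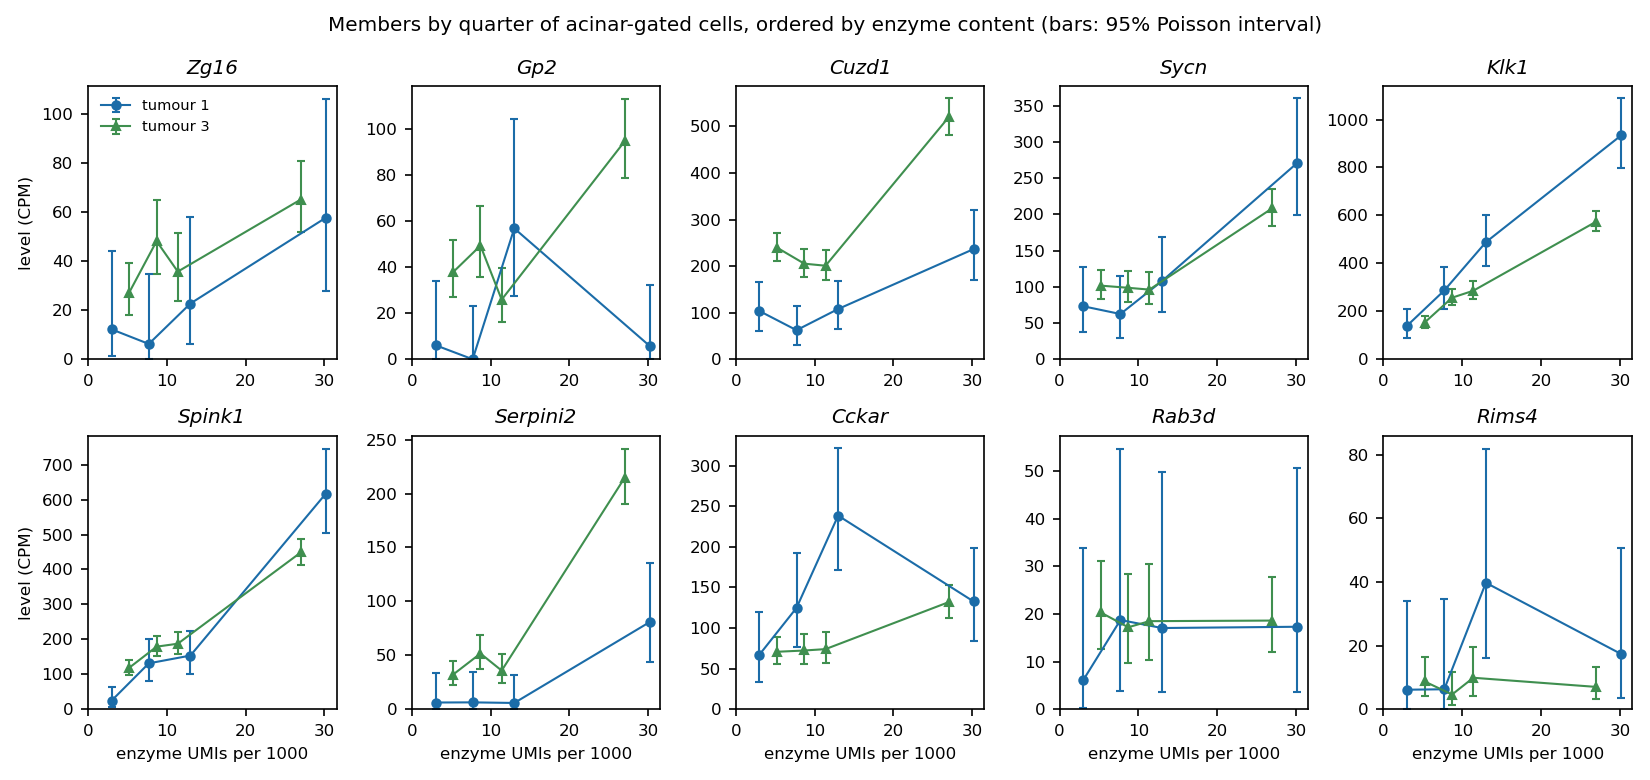
Level of each member in CPM (vertical axis, from 0) in 4 equal bins of acinar-gated cells of tumours 1 and 3, placed at the bin's enzyme UMIs per 1000 (horizontal axis), with exact 95% Poisson intervals. All cells are included. Klk1 and Spink1 climb with enzyme content, Serpini2 is highest in the top bin (80.8 and 215 CPM), and Rab3d lies at 17.2 to 20.3 CPM in tumour 3.

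Of the wider lists, none of the 22 exocytosis genes or 19 receptor and signalling genes tested was called between enzyme-rich and enzyme-poor cells by edgeR or by DESeq2, and none had an unadjusted p under 0.05 in edgeR. Between the top and bottom of 3 equal groups 1 exocytosis gene was lower. Of 13 granule and acinar factors 4 were higher, Pdia2 (1.17, SE 0.24), Erp27 (1.01, SE 0.17), the cargo receptor gene Tmed6 (0.66, SE 0.12) and Rbpjl (0.59, SE 0.15), with adjusted p-values of 0.000576, 1.70e-05, 0.000150 and 0.0146. Of 20 folding genes 5 were higher. Among all genes tested 0.680% were higher and 1.14% lower. With DESeq2 none of the granule and acinar factors and 1 folding gene were higher, without the block none of either list, and without rRNA-rich barcodes 3 and 7. Among inhibitors Serpini1 was higher (1.01, SE 0.23) and Slpi (-1.01, SE 0.25) and Wfdc18 (-0.74, SE 0.21) were lower, none of which was called with DESeq2 or without the 5% of cells with most UMIs; without rRNA-rich barcodes 1 was higher and 2 lower. None of the 34 cell cycle genes was called by edgeR, where 1 had an unadjusted p under 0.05, or by DESeq2.

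The cells were also split at the median share of UMIs from 34 cell cycle genes. Cycle-high cells held fewer enzyme UMIs in tumour 1 (12.5 against 15.5 per 1000) and tumour 3 (13.0 against 15.8). In tumour 2, which was not in the test, they held more (10.8 against 8.51 per 1000). Of 19 enzyme genes tested, 15 were lower in cycle-high cells. That count was 3 of 18 without rRNA-rich barcodes, 3 with DESeq2, 8 without the 5% of cells with most UMIs and 0 without the block. Of 10 members tested, 4 were lower and none higher, while 4.34% of the 7669 genes tested were called, 0.926% higher and 3.42% lower. rRNA-rich barcodes were fewer among cycle-high cells (12 against 51 in tumour 1 and 564 against 693 in tumour 3), whose median depth was 1787 and 1610.5 UMIs against 1542 and 1514.5.

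Sycn fell by 1.47 on the log2 scale (SE 0.15, adjusted p = 7.75e-10), with 73.3 CPM in cycle-high and 212 CPM in cycle-low cells of tumour 1 and 87.4 against 192 CPM in tumour 3. Both tumours showed it at a similar size. Spink1 fell by 0.69 (SE 0.12, adjusted p = 9.80e-05), with 215 against 266 and 212 against 301 CPM, but was not called without the 5% of cells with most UMIs (-0.29, adjusted p = 0.354). In tumour 2, which was not in the test, Spink1 had the opposite order (356 against 83.9 CPM, from 16 and 2 UMIs), with overlapping intervals. Zg16 (-1.68, SE 0.26, adjusted p = 8.90e-06) and Gp2 (-0.91, SE 0.25, adjusted p = 0.0205) rested on tumour 3, where Zg16 had 23.9 against 72.7 CPM and Gp2 41.5 against 74.3 CPM. In tumour 1 Zg16 had 9 and 8 UMIs and Gp2 10 and 2, so Gp2 had the opposite order there.

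Klk1 and Cuzd1 were at -0.07 (SE 0.11 and 0.13, adjusted p = 0.845 and 0.857). Cckar was at 0.46 (SE 0.18, adjusted p = 0.161), with 192.0 against 71.9 CPM in tumour 1 and 104 against 75.5 CPM in tumour 3, and in the 36 cells of tumour 2 the order was the opposite (111 against 252 CPM). Serpini2 (-0.59, adjusted p = 0.0993), Rab3d (-0.30, adjusted p = 0.776) and Rims4 (0.55, adjusted p = 0.698) did not pass. Serpini2 was called lower with stricter gates (-1.08, adjusted p = 0.00713), with no home-library filter (-0.77, 0.0441), at 2000 UMIs per cell (-1.45, 0.00504) and between 3 equal groups (-1.17, 0.000824), where Cuzd1 was called as well (-0.51, 0.0286). Without rRNA-rich barcodes 0.340% of genes were called and Sycn was the 1 member among them (-1.60, SE 0.20, adjusted p = 0.0246), while Zg16 (-2.38, adjusted p = 0.205), Gp2 (-1.18, 0.406) and Spink1 (-0.84, 0.0783) kept their sign. DESeq2 also called Sycn alone (-1.54, SE 0.35, adjusted p = 0.00187), and gave no adjusted p for Zg16 and Gp2. Of the acinar-gated cells of tumours 1 and 3, 53 and 249 lay within 10% of the cycle threshold, and 37 and 332 within 10% of the enzyme threshold.

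**Figure D5:**
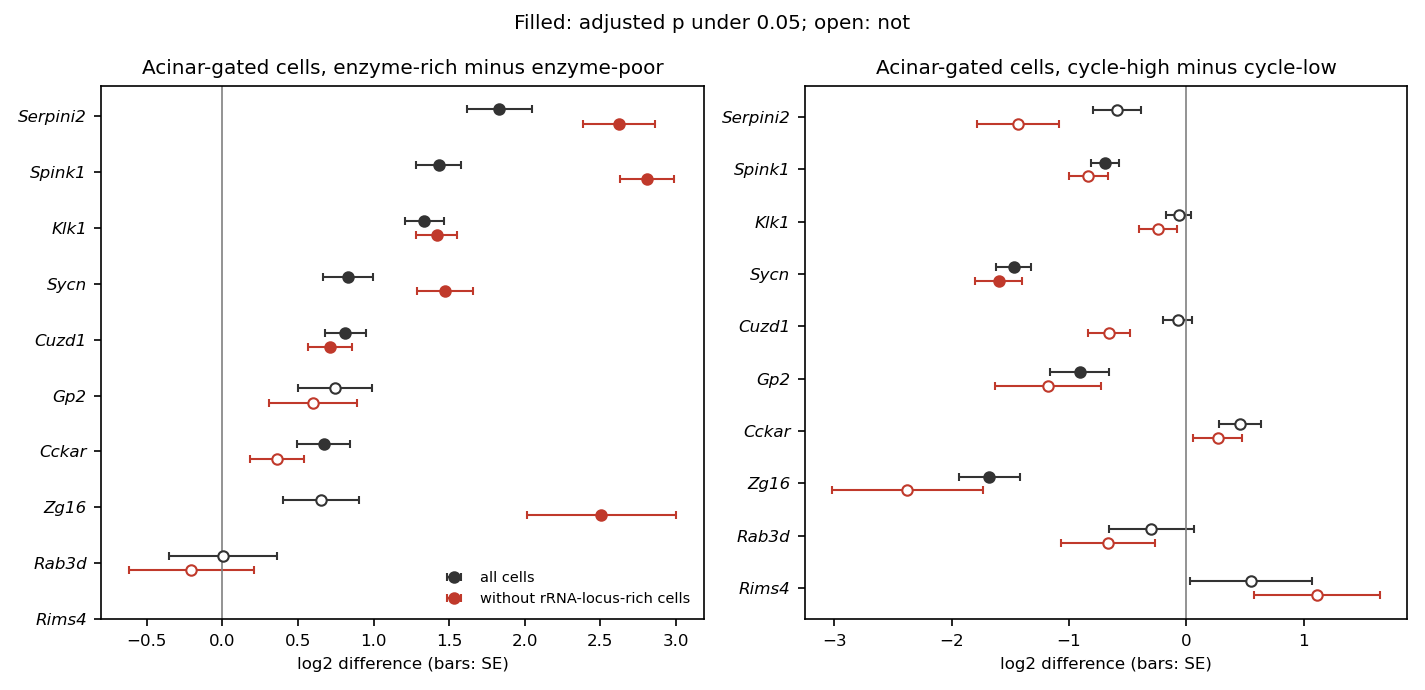
Log2 difference with its SE (horizontal axes) of each member between enzyme-rich and enzyme-poor cells (left) and between cycle-high and cycle-low cells (right), acinar-gated cells only, in all cells and without rRNA-rich barcodes; filled points passed an adjusted p of 0.05. Serpini2, Spink1 and Klk1 lie at 1.34 to 1.83 on the left in all cells, and Sycn lies at -1.47 and -1.60 on the right.

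Protease inhibitors other than Spink1 and Serpini2 showed 5 of 10 tested genes lower in cycle-high cells, Wfdc18 (-1.45, SE 0.23), Spink4 (-1.44, SE 0.18), Slpi (-0.88, SE 0.27), Wfdc2 (-0.80, SE 0.15) and Cstb (-0.74, SE 0.16), with adjusted p-values of 1.29e-05, 9.81e-08, 0.0430, 0.000212 and 0.00161. None of them was called without rRNA-rich barcodes or without the block, 2 were with DESeq2 and 3 without the 5% of cells with most UMIs. Among all genes tested 3.42% were lower in the main test. The exocytosis, receptor, granule factor and folding lists had no called gene among 21, 19, 13 and 20 tested by edgeR or DESeq2, nor among the 15, 17, 12 and 20 tested without rRNA-rich barcodes. There were 1, 1, 0 and 4 genes at an unadjusted p under 0.05 in edgeR.

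Annotated neighbours limit some members. Sycn overlaps Samd4b on the opposite strand, and Samd4b was not called between the gates (-0.05, SE 0.31, adjusted p = 0.936). Cuzd1 overlaps an annotated Fgfr2 transcript on its own strand, and Zg16 and Klk1 overlap noncoding genes on the opposite strand. How reads in such overlaps were counted is not stated.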

How the data were processed

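Single-cell 3' RNA of 3 tumours was measured, with 1 library each; the labels name both Version 1 and Version 3 kits. The deposited matrices hold UMI counts per gene and barcode that the authors made with Cell Ranger 3.0.2, per the file headers. The submitters' processing notes name Cell Ranger 3, Seurat 3.1 and mm10; neither they nor the labels name the annotation behind the counts. Counts were used as deposited, with no further scaling.

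Cells were filtered and gated as in the report. No doublet caller was run: cells meeting both gates formed a class of their own, and an alternative left out the 5% of cells with most UMIs. UMIs were summed per tumour and gate (50 or more cells) or per tumour and side of a split (20 or more) and tested with edgeR 4.0.16's quasi-likelihood test (R 4.3.3, limma 3.58.1), with tumour as a blocking term, p-values adjusted by Benjamini-Hochberg over all genes tested and a threshold of 0.05. The block pairs gates of the same tumour, and the deviations of paired sums correlated at 0.106, 0.0431 and 0.251 over 8686 genes. The scripts were tested on simulated data. DESeq2 1.42.0, other filters, gates and thresholds, and leaving out each tumour were alternatives. Leaving out rRNA-rich barcodes, sums of 20 cells and split sums of 10 cells were chosen after seeing the data. Levels are CPM with exact 95% Poisson intervals; intervals and limits from 3 counts cover counting error only. Likeness used log2(CPM + 1). Depth per library is given in the report.

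The members and gene lists were chosen with earlier results of these data known. Text names all 10 members, up to 5 called genes of largest difference per list, the 5 genes most like the members' mean (1 of them is not reported here), and family relatives; untested genes and the neighbour Samd4b were named after their values were seen. Positions are from GENCODE M21. Python 3.11.15, numpy 2.4.6, scipy 1.17.1 and pandas 2.3.3 were used.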

Additional observations from a re-analysis of the deposited data

How the results depend on the processing

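The count of genes called between acinar-gated and ductal-gated cells, 2536, was 1237 with DESeq2, 1379 with no replicate block and 943 to 2714 when each tumour was left out; of the 10 members called, 6 to 9 stayed called without 1 tumour. For the enzyme split, 142 genes were called, against 13 with DESeq2, 0 with no replicate block (177 at an unadjusted p under 0.05), 77 with stricter gates, 91 without the 5% of cells of most UMIs, 227 for the top against the bottom of 3 equal groups and 90 with 10 cells per sum; members called, 6, became 2 with DESeq2 and 0 without the block. Rab3d, at 0.00 there, turned to -0.078 (2000 UMIs per cell), -0.321 (without the 5%), -0.144 (3 groups) and -0.207 (without rRNA-rich barcodes), never called. For the cycle split, 333 genes were called, against 22 with DESeq2, 0 with no replicate block (322 at an unadjusted p under 0.05), 131 with stricter gates, 194 with looser gates, 138 at 2000 UMIs, 75 without the 5%, 194 with 10 cells per sum and 22 without rRNA-rich barcodes; members called, 4, became 1, 0, 2 and 1 with DESeq2, without the block, with 10 cells and without rRNA-rich barcodes. Klk1, at -0.07, turned to 0.079 with looser gates, 0.107 with no home-library filter and 0.017 with 10 cells. The summed member level, a mean of 1349 CPM, was 1647 with stricter and 1179 with looser gates, 1528 with no home-library filter, 1734 at 2000 UMIs, 1535 without rRNA-rich barcodes and 1282 to 1419 without 1 tumour. Without tumour 1 or 3 the splits have no residual degrees of freedom and were not run; tumour 2 is not in them. Between the gates, Rab3d was the 1 member call that changed without the block. The cause of these shifts was not tested. Depth limits Zg16, Gp2, Serpini2, Rims4 and Rab3d, which had 0 to 17 UMIs in the acinar-gated cells of tumours 1 and 2.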
